A study of Hydra vulgaris with 30 samples.

Results

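The transcripts described here were those whose level in regenerating *Hydra* tips was lower under UNC0379 than under the vehicle already at 0 hours postamputation (hpa) and stayed lower through 12 hpa. They numbered 130 of the 51290 transcripts counted. A transcript was a member if it met 3 limits on its CPM, its share of the counts of a library on the usual scale. Its highest mean over the 3 DMSO libraries of a time had to reach 30 CPM. The log2 ratio of its UNC0379 mean to its DMSO mean, with 5 CPM added to both, had to be -1 or lower on average over 3, 8 and 12 hpa, and -0.7 or lower at 0 hpa. The members were thus chosen by their values at 0, 3, 8 and 12 hpa, and what is given at these times is a description. The ratio at 24 hpa did not enter the choice. The DMSO mean at 24 hpa entered only through the level limit, and 0 members would miss that limit without it.

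The samples were regenerating tips of *Hydra vulgaris*, strain Ind-Pune, from a clonal culture. The polyps were decapitated and the tips were taken at 5 times from 0 to 24 hpa, after treatment with UNC0379 or with 0.2% DMSO as the vehicle, with 3 libraries in each of the 10 groups and 30 in all. UNC0379 is given at 150 µM in the labels of the treated samples, whereas a protocol field writes the same figure in mM. Both arms come from the same strain, and neither labels nor methods say if separate cultures gave the 3 libraries of each group, so that the p-values measure the spread between these libraries, which may be technical. For its regeneration assays the study describes a start of the inhibitor before decapitation, and whether this held for the RNA samples is not stated in the sources used here.

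UNC0379 is a small molecule that competes with the histone substrate of SETD8 (KMT5A), the enzyme that places a single methyl group on lysine 20 of histone H4. This mark, H4K20me1, is known for its part in the cell cycle and chromatin compaction, and it lies over the bodies of many genes, where it has been linked to both active and silenced transcription. After decapitation, a *Hydra* polyp rebuilds its head from the tissue at the cut, and Wnt signalling from the forming organizer leads this process. The files name transcripts by gene model only. None of the identifiers could be paired with a gene through the reference table used here (0 of 94298 transcript and model identifiers), and a genome browser panel of the study labels 1 member, Sc4wPfr_504.g10351.t1, as dickkopf-related protein 3. No role is given to any other member, and the label of the tissue was not checked against marker genes. In RNA from whole tips, fewer cells of a type and less RNA per cell cannot be told apart.

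The libraries held 146798 to 811079 reads assigned to transcripts, with a median of 515933, so that 1 count was worth 1.23 to 6.81 CPM. Libraries were compared on normalized CPM, in which the library size is the sum over the 5046 transcripts with enough counts to be tested, scaled by the trimmed mean of M-values (TMM). All 130 members were among these 5046. The UNC0379 libraries of 24 hpa lay farther from one another than those of the other groups. The median distance of a transcript from the mean of the other 2 libraries of its group was 0.516, 0.694 and 1.04 on the log2 scale in replicates 1, 2 and 3, against 0.226 to 0.484 in the other 27 libraries. UNC0379 24 hpa replicate 3 was also the shallowest library, and 32 members had 0 counts in it, against at most 13 in any other library. In DMSO 24 hpa replicate 3, 98.2% of the reads were not aligned, while its number of assigned reads (625103) was within the range of the others. Counts at 24 hpa are therefore also given without these libraries.

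At 24 hpa, the members remained far below the vehicle. By edgeR's quasi-likelihood test over all 30 libraries, 110 of the 130 members were lower under UNC0379 at an adjusted p under 0.05, 0 were higher and 20 did not pass. Over all transcripts tested, 5.31% were called lower in this comparison, and 7.34% of the 3323 tested transcripts at the same level limit. The fitted log2 fold change was below 0 in all 130 members, with a median of -2.23, quartiles of -2.78 and -1.65 and a range from -5.83 to -0.36. The median over all transcripts tested was -0.017. All 110 called members were more than 2-fold lower. The 3 UNC0379 libraries lay below the 3 DMSO libraries without overlap in 113 members, where 11.0% of all transcripts tested and 12.9% of those at the level limit did so.

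The number of calls at 24 hpa depended on which libraries were fitted, and the size of the change did so far less. The SE and p-values of the fit over all 30 libraries rest on a shared spread. The UNC0379 libraries of 24 hpa lay farther apart, so these values may be too small at this time. When only the 6 libraries of 24 hpa were fitted, 107 members had enough counts and 49 of them were called lower, among 64 of 3070 transcripts, with a median log2 fold change of -2.20 over these members. Leaving out UNC0379 24 hpa replicate 3 gave 109 member calls, among 244 of 5311 transcripts. Without UNC0379 24 hpa replicate 2 there were 94, among 308 of 5351, and without DMSO 24 hpa replicate 3 there were 103, among 265 of 5350. Without replicate 3 of both groups of 24 hpa and UNC0379 0 hpa replicate 3, 107 were called, among 300 of 5226. With all libraries thinned to the smallest total, 59 of 87 members with enough counts were called, among 135 of 2427.

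**Figure D1:**
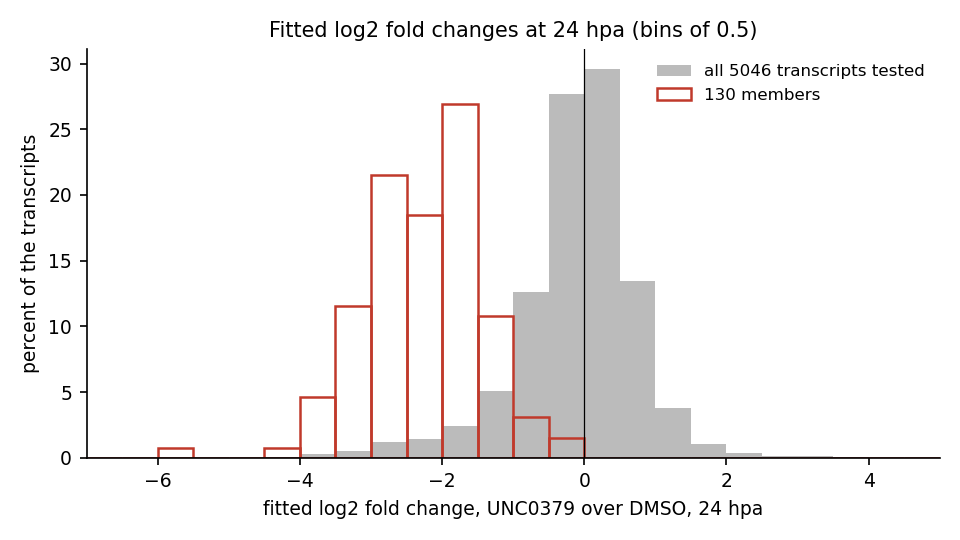
Percent of transcripts (vertical axis) by fitted log2 fold change of UNC0379 over DMSO at 24 hpa (horizontal axis, bins of 0.5). Grey bars are the 5046 transcripts tested, centred near 0, and red outlines are the 130 members, all of which lie below 0, with a median of -2.23.

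The most abundant member was Sc4wPfr_268.g25743.t1, with a mean of 8438 CPM over the 15 DMSO libraries. Its normalized CPM at 24 hpa was 7966, 8377 and 9482 in the DMSO libraries and 1505, 1641 and 2245 in the UNC0379 libraries. Every UNC0379 library was thus far below every DMSO library. The fitted log2 fold change was -2.27 (SE 0.18, edgeR adjusted p = 6.02e-11, n = 3 against 3, with the spread shared over all 30 libraries). In the fit of the 6 libraries alone it was -2.24 (SE 0.31, edgeR adjusted p = 0.0185). At 0 hpa it stood at 13236, 11792 and 11602 under DMSO and 5645, 5479 and 7072 under UNC0379. By 3 hpa the UNC0379 libraries held 1599, 1415 and 1966, with 8945, 8778 and 9869 under DMSO. It made up 36.8% of the summed level of all members in the DMSO libraries of 0 hpa, so that sums are also given without it.

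The next member by mean CPM of assigned reads under DMSO, Sc4wPfr_365.g14975.t1, had the smallest adjusted p of all transcripts tested at 24 hpa. Its normalized CPM there was 778, 785 and 819 under DMSO and 59.2, 64.3 and 69.9 under UNC0379. The libraries of each group lay close together, and the log2 fold change was -3.64 (SE 0.21, edgeR adjusted p = 3.22e-15). For this transcript the fit of the 6 libraries alone gave -3.62 (SE 0.31, edgeR adjusted p = 0.00784). At 12 hpa it was at 787, 748 and 685 under DMSO and 130.3, 155 and 149 under UNC0379, so that the UNC0379 level was lower at 24 hpa than at 12 hpa while the DMSO level was similar. For Sc4wPfr_385.g24452.t1 the UNC0379 level was also lower at 24 hpa than at 12 hpa, but its DMSO level did not stay similar. At 12 hpa its DMSO libraries held 742, 764 and 759 and its UNC0379 libraries 148, 132 and 197. At 24 hpa they held 829, 587 and 228 under DMSO and 27.1, 46.1 and 7.77 under UNC0379, the latter from 11, 28 and 1 counts. The DMSO libraries of 24 hpa were spread widely for this member, with replicate 3 the lowest in both groups, yet the groups did not overlap (log2 fold change -4.04, SE 0.39, edgeR adjusted p = 2.55e-09, with a range from -4.65 without UNC0379 24 hpa replicate 2 to -3.62 without DMSO 24 hpa replicate 1). For this member the fit of the 6 libraries alone gave -4.15 (SE 0.66, edgeR adjusted p = 0.0256).

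Of the lowest fitted values at 24 hpa, that of Sc4wPfr_599.g27243.t1 was -3.92 (SE 0.37, edgeR adjusted p = 1.88e-09), from 148, 188 and 157 normalized CPM under DMSO and 2.47, 13.2 and 23.3 under UNC0379. All 3 UNC0379 values were far below every DMSO value, but they rest on 1, 8 and 3 counts. Leaving out each library in turn gave changes from -4.38 to -3.40 for this member. Sc4wPfr_628.g32857.t1 had no count in any UNC0379 library of 24 hpa, against 18 counts over the DMSO libraries, so that its fitted value of -5.83 is no measure of its size. Set against a floor of 3 counts over the group, with the DMSO counts taken as exact, it was at least 5.05-fold lower, and the upper 95% Clopper-Pearson limit of its ratio, with the counting error of both groups, was 0.27. With it at this bound the median of the members was still -2.23. MSTRG.14843.1 had 2 counts under UNC0379 and 40 under DMSO at 24 hpa, a ratio of 0.0594 with a 95% Clopper-Pearson interval of 0.00696 to 0.229, which covers counting error only. It was much nearer to the vehicle before, at 28.6, 29.7 and 27.6 normalized CPM under DMSO and 12.0, 13.2 and 15.7 under UNC0379 at 12 hpa, and it lay just inside the limit of the rule. Its fitted change at 24 hpa was -3.90 (edgeR adjusted p = 2.58e-05), and it moved to -6.99 without UNC0379 24 hpa replicate 1 and to -2.95 without replicate 2. All its UNC0379 counts of 24 hpa were in replicate 1, so that -6.99 rests on a group with no count and is no measure of size. In the fit of the 6 libraries alone its adjusted p was 0.0648.

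Sc4wPfr_504.g10351.t1, labelled dickkopf-related protein 3 in that panel, was the member with a product name. Dickkopf proteins are secreted, and several of them block Wnt signalling at its co-receptor, whereas the part of the vertebrate protein of this name is less settled. In *Hydra*, another Dickkopf is made by gland cells of the body column and antagonizes Wnt. Under DMSO this transcript was at 53.7 to 117 normalized CPM throughout, with 90.0, 85.1 and 88.4 at 0 hpa and 88.8, 97.5 and 117 at 24 hpa. Under UNC0379 the libraries of 0 hpa differed among themselves, at 28.9, 43.1 and 91.8, so that replicate 3 was as high as the vehicle and the groups overlapped. At 3 hpa the values were 74.9, 89.2 and 103 under DMSO and 25.7, 6.11 and 13.1 under UNC0379, and at 8 hpa 76.1, 72.1 and 72.2 under DMSO and 17.8, 12.3 and 13.0 under UNC0379. The groups were apart from 3 hpa on. At 12 hpa the UNC0379 libraries held 12.0, 35.9 and 20.9, with 89.9, 77.2 and 53.7 under DMSO. At 24 hpa, the time that did not enter the choice, the UNC0379 libraries held 27.1, 11.53 and 38.8, all below the DMSO libraries, with a log2 fold change of -2.24 (SE 0.42, edgeR adjusted p = 0.000344). Leaving out each library in turn gave -2.51 to -1.75, with an adjusted p of at most 0.0131. In the fit of the 6 libraries alone the change was -2.14 and the adjusted p was 0.082, above the threshold.

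**Figure D2:**
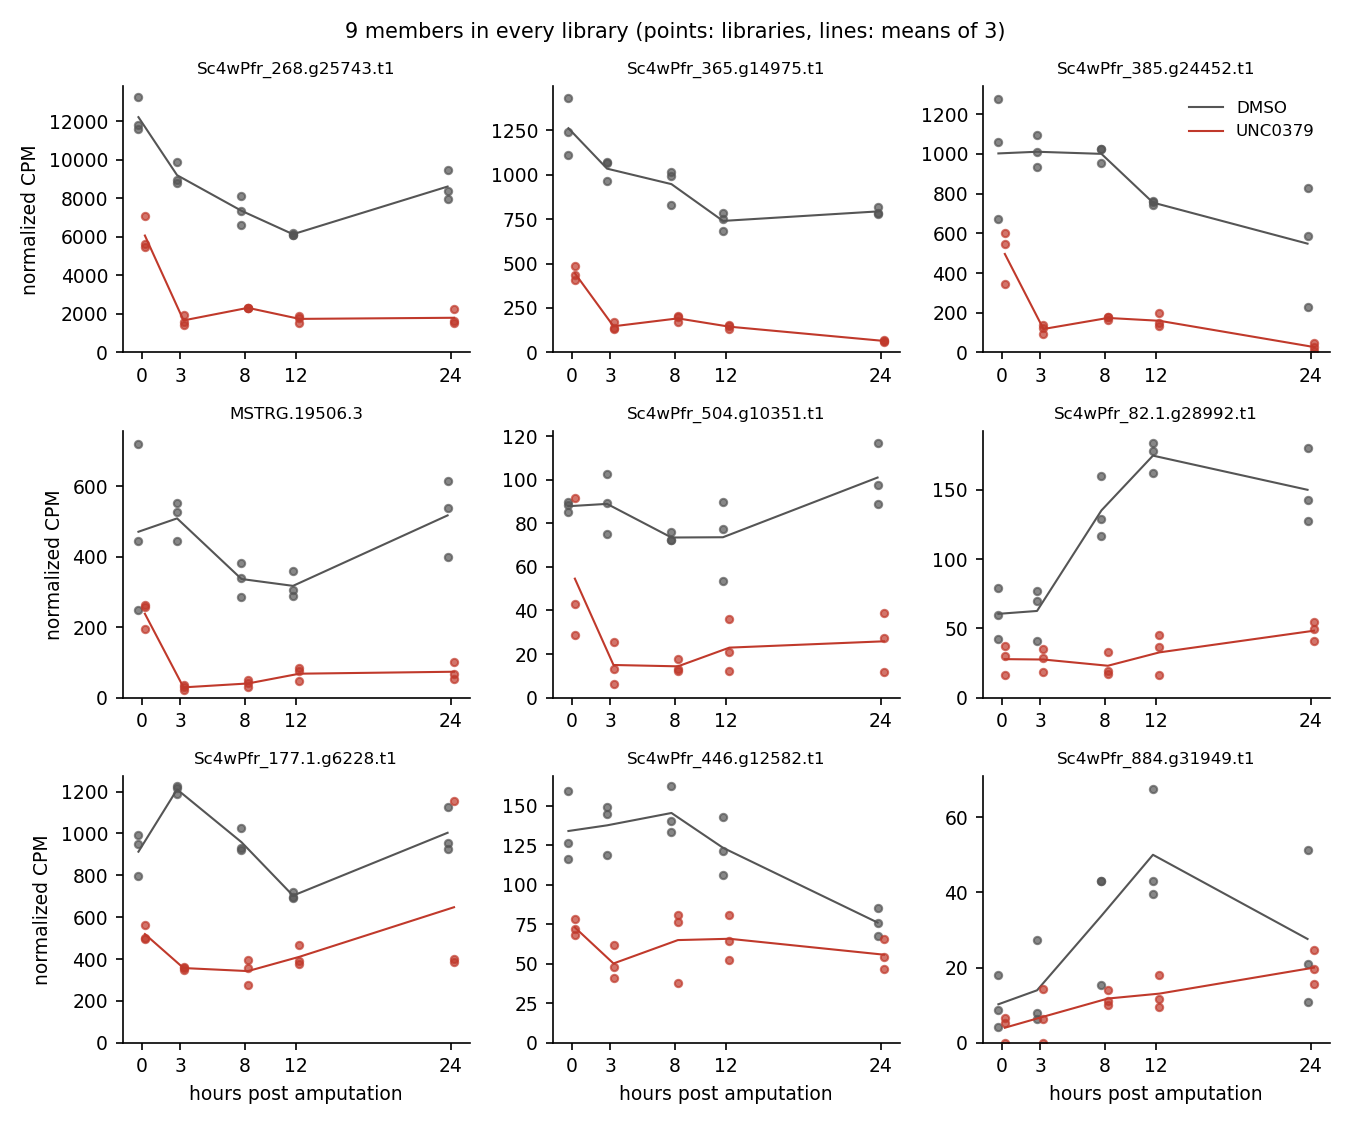
Normalized CPM (vertical axes, from 0) against hours post amputation for 9 members. Points are single libraries and lines are means of 3, grey for DMSO and red for UNC0379, slightly offset in time. In the top row UNC0379 stays far below DMSO from 3 to 24 hpa. In the bottom row the groups come close or overlap at 24 hpa, where 1 UNC0379 library of Sc4wPfr_177.1.g6228.t1 is at 1157 and the other 2 at 387 and 399.

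The 20 members that did not pass at 24 hpa were mostly of low level, with a median DMSO mean of 30.05 normalized CPM at that time against 87.3 for the 110 that passed. In 12 of the 20 the groups overlapped, as they did in 5 of the members that passed. In 13 of these 17 members with overlap, the highest UNC0379 library was replicate 3. Over all members, UNC0379 24 hpa replicate 3 was the highest library of its group in 51 and the lowest in 56. Its median log2 ratio of the members to the vehicle was -2.15, against -1.81 in replicate 1 and -1.92 in replicate 2. The clearest case of overlap was Sc4wPfr_177.1.g6228.t1, one of the most abundant members, at 1127, 928 and 955 under DMSO and 387, 399 and 1157 under UNC0379. 2 of its UNC0379 libraries were as low as at 12 hpa (467, 391 and 375), and replicate 3 was above every DMSO library. Its log2 fold change was -0.69 (SE 0.25, edgeR adjusted p = 0.0909), and without that library it was -1.33 and passed the threshold (adjusted p = 3.5e-08). With all libraries it also passed with limma-voom (-0.95, adjusted p = 0.00581) and with no filter on low counts (-0.92, edgeR adjusted p = 0.0352). What set this library apart was not tested.

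Other members came nearer to the vehicle with all libraries. Sc4wPfr_446.g12582.t1 was at 140.4, 133 and 162 normalized CPM under DMSO and 38.1, 80.5 and 76.2 under UNC0379 at 8 hpa. At 24 hpa it was at 67.3, 75.5 and 85.4 under DMSO and 46.9, 65.9 and 54.4 under UNC0379. The DMSO level was lower than before while the UNC0379 level was much the same, and the 2 groups lay next to each other without overlap (log2 fold change -0.43, SE 0.28, edgeR adjusted p = 0.463). Sc4wPfr_884.g31949.t1 was low under DMSO at 0 hpa (8.75, 17.9 and 4.08) and higher at 12 hpa (67.4, 39.6 and 42.9), when the UNC0379 libraries held 18.0, 9.45 and 11.8. Its counts at 0 hpa were few, at 7, 8 and 3 under DMSO and 0, 3 and 4 under UNC0379. At 24 hpa the groups overlapped, at 10.8, 51.2 and 20.9 under DMSO and 19.7, 24.7 and 15.5 under UNC0379 (log2 fold change -0.36, SE 0.60, edgeR adjusted p = 0.832), and the sign turned to 0.37 without DMSO 24 hpa replicate 2. A p above the threshold does not show that these members were at the level of the vehicle.

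At the times that chose the members, their summed level shows the course. The sum was 33160 ± 2318 normalized CPM (SD, n = 3) under DMSO at 0 hpa and 16415 ± 1616 under UNC0379, which is 49.5% of the vehicle. At 3 hpa it was 28712 ± 1252 and 5602 ± 536, or 19.5%. The UNC0379 sum at 3 hpa was 34.1% of its own value at 0 hpa, while the DMSO sum was 86.6% of its value. Both times entered the choice, with a lower limit for the mean of 3, 8 and 12 hpa than for 0 hpa. At 8 hpa the sums were 24782 ± 1403 and 6998 ± 188, and at 12 hpa 21287 ± 309 and 6418 ± 248, so that UNC0379 stood at 28.2% and 30.2% of the vehicle. At 24 hpa they were 25676 ± 777 and 6038 ± 953, or 23.5%. Without the most abundant member the shares were 49.4%, 20.2%, 26.9%, 30.9% and 24.8% in the order of the times. UNC0379 24 hpa replicate 3 had the highest sum of its group, at 7138.

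**Figure D3:**
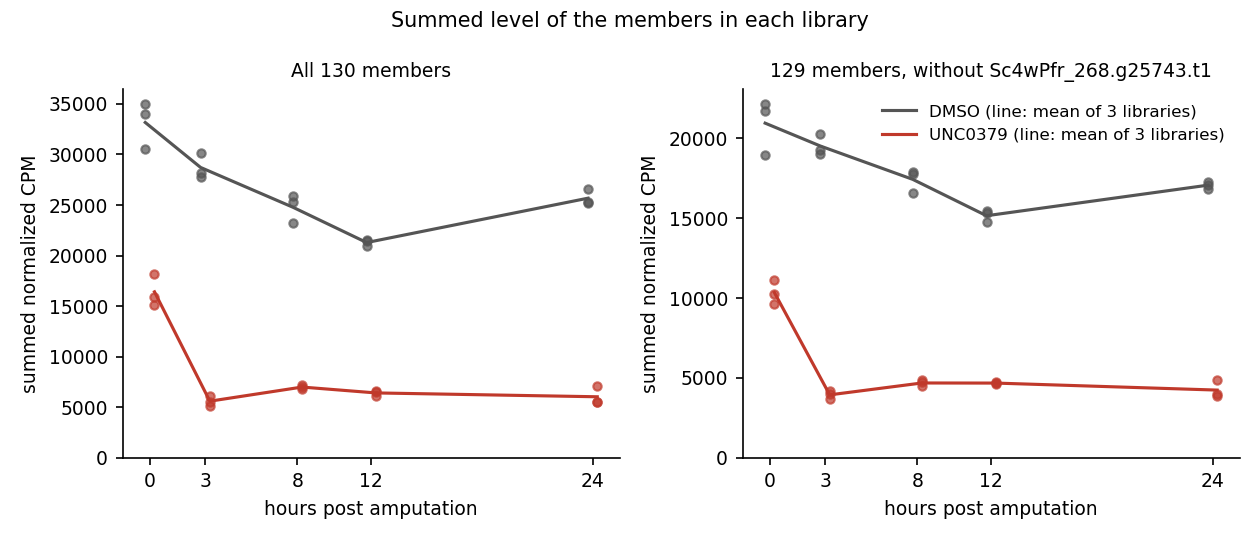
Summed normalized CPM of the members (vertical axes, from 0) against hours post amputation, for all 130 members on the left and without the most abundant one on the right. Points are the 3 libraries of a group and lines their means, grey for DMSO and red for UNC0379. On the left the UNC0379 mean is 16415 at 0 hpa and 5602 at 3 hpa and then stays between 6038 and 6998.

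The ratios used by the rule had medians of -1.01, -1.91, -1.54 and -1.51 in the order of the times, and the median at 24 hpa was -1.78. Of the 4 ratios of the rule, 91 members had the lowest at 3 hpa, 19 at the next time, 16 at 12 hpa and 4 at the start. In 121 members the ratio was lower at 3 hpa than at 0 hpa, and in 115 it was lower at 24 hpa than at 0 hpa. At 24 hpa it was lower than at 12 hpa in 94 members. Within the UNC0379 libraries, the mean level was at least 2-fold lower at 3 than at 0 hpa in 63 members on the same scale of CPM plus 5, whereas under DMSO this was so in 2. Between 12 and 24 hpa, 16 members were at least 2-fold lower and 2 at least 2-fold higher under UNC0379, and 5 and 3 were under DMSO.

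The same fit called 57 members lower at 0 hpa, where 2.97% of all transcripts tested were called lower, 124 at 3 hpa (5.47% of all), 118 at 8 hpa (6.42%) and 109 at 12 hpa (4.91%). These counts follow from the choice of members, and nothing is read from them. With UNC0379 0 hpa replicate 2 left out, 27 members were called at 0 hpa (among 87 of 5355 transcripts), against 24 in the fit of the 6 libraries of that time (among 60 of 4169) and 21 with no filter on low counts (among 80 of 24489). The median fitted log2 fold changes were -1.02, -2.39, -2.03 and -1.85. At 0 hpa, the UNC0379 libraries differed in how far the members lay below the vehicle, with a median of -0.79 in replicate 3 and of -1.02 and -1.13 in the others. In 46 members the call was made at all 5 times (0.951% of all transcripts tested), and in 87 the libraries did not overlap at any of the 5 times (2.22% of all).

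The lowest mean ratio over 3, 8 and 12 hpa was that of MSTRG.19506.3, at -2.92. Its UNC0379 libraries held 194, 257 and 264 normalized CPM at 0 hpa and 22.5, 34.6 and 30.2 at 3 hpa. Its DMSO libraries held 444, 721 and 248 at 0 hpa and 527, 553 and 445.8 at 3 hpa. At 0 hpa DMSO replicate 3 was within the range of UNC0379, and at 3 hpa the groups were more than 10-fold apart. At 24 hpa it was at 398, 538 and 615 under DMSO and 51.8, 67.5 and 101 under UNC0379 (log2 fold change -2.93, SE 0.31, edgeR adjusted p = 1.24e-08). Sc4wPfr_494.g29480.t1 and Sc4wPfr_536.g2784.t1 followed, both with a mean ratio of -2.65. For Sc4wPfr_536.g2784.t1 the libraries of 24 hpa were 455, 331 and 416 under DMSO and 61.7, 61.0 and 69.9 under UNC0379, with a log2 fold change of -2.67 (SE 0.27, edgeR adjusted p = 5.88e-09).

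Sc4wPfr_494.g29480.t1 was at 153, 109.6 and 176 under DMSO and 7.40, 23.1 and 93.2 under UNC0379 at 24 hpa. Its UNC0379 replicate 3 stood well above the other 2 but below every DMSO library. The log2 fold change was -2.38 (SE 0.42, edgeR adjusted p = 0.000126), it was -3.13 without that library and -1.82 without UNC0379 24 hpa replicate 1, and the adjusted p was 0.302 in the fit of the 6 libraries alone. Sc4wPfr_80.g19903.t1, with a mean ratio of -2.54, had one of the smaller differences at 0 hpa (rule ratio -0.83) and a ratio of -3.21 at 3 hpa. At 24 hpa it was at 404, 451 and 388 under DMSO and 91.3, 75.8 and 117 under UNC0379, and the change was -2.20 (SE 0.24, edgeR adjusted p = 2.39e-08).

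The members nearest to the limit of the mean ratio were Sc4wPfr_446.g12582.t1 (-1.04), MSTRG.14843.1 (-1.06), Sc4wPfr_6.1.g604.t1 (-1.07) and Sc4wPfr_79.g13380.t1 (-1.07). The last of these was at 135, 124 and 148 normalized CPM under DMSO and 39.5, 31.3 and 46.6 under UNC0379 at 24 hpa, farther apart than at 8 hpa (125, 78.7 and 114 under DMSO and 50.8, 57.8 and 65.1 under UNC0379). Its change at 24 hpa was -1.88 (SE 0.27, edgeR adjusted p = 3.7e-06). Sc4wPfr_6.1.g604.t1 was low and variable, at 37.7, 21.9 and 47.0 under DMSO and 4.94, 8.24 and 31.1 under UNC0379 (2, 5 and 4 counts). It passed at an adjusted p of 0.0487 (edgeR, log2 fold change -1.80), and this call was lost with DESeq2 (adjusted p = 0.0571) and when any of 17 libraries was left out.

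**Figure D4:**
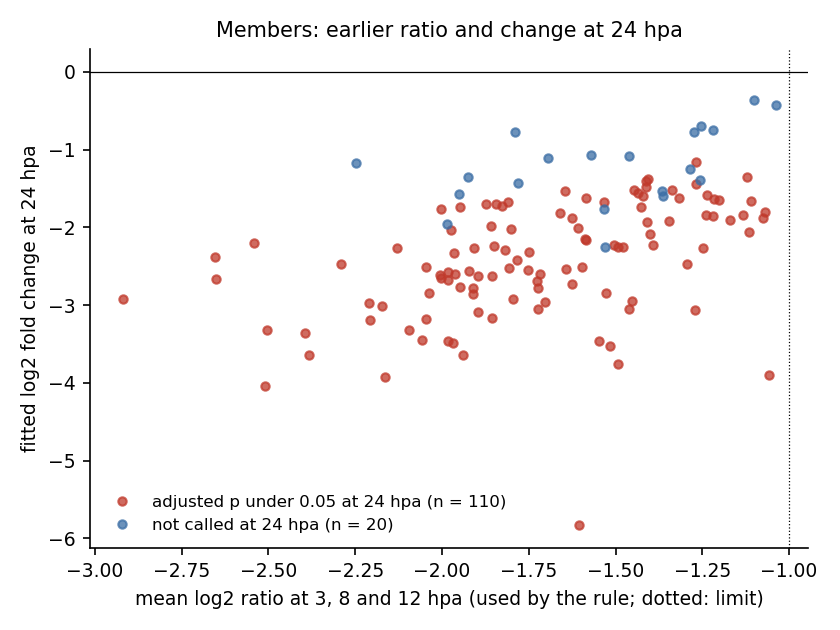
Fitted log2 fold change at 24 hpa (vertical axis) against the mean log2 ratio at 3, 8 and 12 hpa that chose the members (horizontal axis), 1 point a member. Red points are the 110 members called lower at 24 hpa and blue points the 20 not called, and the dotted line is the limit of -1. The members with the lower earlier ratios tend to be lower at 24 hpa, with much scatter.

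Across the 130 members, the fitted change at 24 hpa went with the mean ratio of 3 to 12 hpa, with a Pearson r of 0.459 and a Spearman rho of 0.521. With the ratio at 0 hpa, r was 0.195 and rho 0.237, and with the log2 of the mean DMSO level r was -0.021. These are descriptions across transcripts of the same libraries, which share depth and normalization. The members called at 24 hpa were more frequent where the level was high. Of the 61 members whose highest DMSO mean was 100 CPM or more, 58 were called, with a median change of -2.26. Of the 34 between 50 and 100 CPM, 28 were called (median -1.93), and of the 35 under 50 CPM, 24 were called (median -2.48). The median SE of these classes was 0.31, 0.45 and 0.64. The share of all transcripts called in the same classes was not counted, so that these counts say nothing particular to the members. The 5 CPM added by the rule also meant that members of low level needed a larger fold change to be chosen.

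Most members were at their highest under DMSO at the start. The highest DMSO mean was that of 0 hpa in 75 members, while 26, 9, 8 and 12 members had it at the 4 later times in order. The DMSO means of 0 to 12 hpa are denominators in the rule, so that these counts follow in part from the choice. How often other transcripts at the level limit were highest at 0 hpa was not counted. In 7 members the DMSO mean was at least 2-fold higher at 8 or 12 hpa than at 0 hpa, in 11 others it was at least 2-fold lower at 24 hpa than at 0 hpa, and 112 met neither limit. The 7 had median rule ratios of -0.93, -0.99, -2.29 and -2.02 from 0 to 12 hpa. The DMSO means that picked the 7 are also the denominators of these ratios. Most of the 7 had few counts at 0 hpa, so that their ratios at that time are uncertain. Sc4wPfr_1185.g18738.t1 had 4, 5 and 1 counts under DMSO and 0, 0 and 2 under UNC0379 at 0 hpa. The best counted of the 7, Sc4wPfr_82.1.g28992.t1, had 48, 19 and 58 under DMSO and 18, 9 and 18 under UNC0379. In the 112 the medians were -1.005, -1.98, -1.52 and -1.46. At 24 hpa, 3 of the 7 were called lower (median log2 fold change -1.54), 9 of the 11 (median -2.29) and 98 of the 112 (median -2.25).

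Sc4wPfr_82.1.g28992.t1 had the highest level of the members that were at their highest under DMSO at 12 hpa. Its DMSO libraries were at 60.0, 42.6 and 78.9 normalized CPM at 0 hpa and at 184, 162 and 178 at 12 hpa. Its UNC0379 libraries were at 37.1, 16.2 and 30.05 at 0 hpa and at 16.0, 45.3 and 36.6 at 12 hpa. The DMSO libraries of 12 hpa were all higher than those of 0 hpa, while the UNC0379 libraries of both times overlapped. At 24 hpa it was at 143, 180.3 and 127 under DMSO and 49.4, 41.2 and 54.4 under UNC0379 (log2 fold change -1.68, SE 0.33, edgeR adjusted p = 0.000552). Of the members highest under DMSO at 24 hpa, Sc4wPfr_629.1.g28767.t1 had the highest level, at 139.9, 224 and 387 under DMSO and 39.5, 36.2 and 31.1 under UNC0379. The DMSO libraries varied widely and the UNC0379 libraries did not, and the change was -2.78 (SE 0.33, edgeR adjusted p = 1.14e-07). Its highest DMSO value was that of replicate 3, the library with 98.2% of its reads not aligned. Without that library the change was -2.31 (edgeR adjusted p = 2.81e-06).

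**Figure D5:**
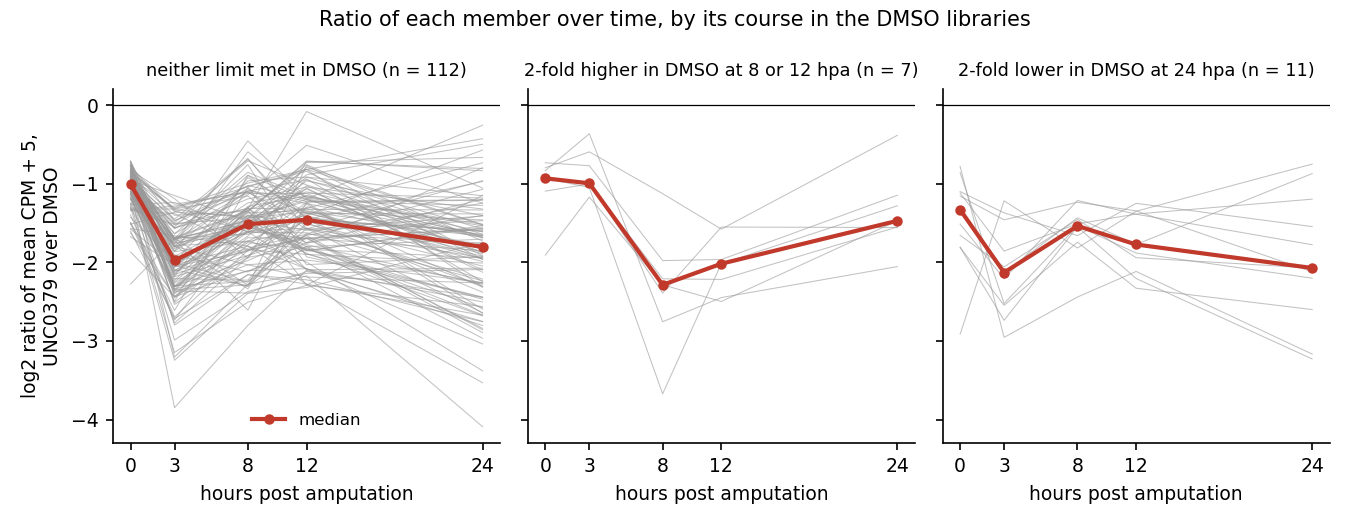
Log2 ratio of mean CPM plus 5, UNC0379 over DMSO (vertical axis), against hours post amputation for each member (grey) and the median (red), by the course of the member under DMSO: neither limit met (112 members), at least 2-fold higher at 8 or 12 hpa (7) and at least 2-fold lower at 24 hpa (11). The median of the 112 is -1.98 at 3 hpa and that of the 7 is -2.29 at 8 hpa. The values at 0 to 12 hpa chose the members, and the DMSO means that set the 3 panels are the denominators of the ratios.

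The members came from 130 different gene models. Of them, 117 carried Sc4wPfr identifiers, on 97 scaffolds, and 13 carried MSTRG identifiers, as did 792 of the 3325 transcripts at the level limit. The model had 1 transcript in the files for 122 members (93.8%, against 93.5% at the level limit). 16 scaffolds held 2 or more members, 36 members in all. The 3 scaffolds with 3 or more members were Sc4wPfr_356, with 4 among its 15 transcripts at the level limit, Sc4wPfr_628, with 3 among 7, and Sc4wPfr_80, with 3 among 6. Over all scaffolds, 117 of the 2533 Sc4wPfr transcripts at the level limit were members. Whether members share scaffolds more often than other transcripts was not tested. Members with consecutive gene numbers on a scaffold were Sc4wPfr_356.g7066.t1 with Sc4wPfr_356.g7067.t1, and Sc4wPfr_259.g33632.t1 with Sc4wPfr_259.g33633.t1.

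The neighbours on Sc4wPfr_356 differed widely in level. Sc4wPfr_356.g7067.t1 was abundant, at 769, 911 and 1103 normalized CPM under DMSO and 358, 295 and 318 under UNC0379 at 24 hpa, a log2 fold change of -1.52 (SE 0.27, edgeR adjusted p = 0.000127). Sc4wPfr_356.g7066.t1 was at 26.9, 24.4 and 55.7 under DMSO and 14.8, 8.24 and 31.1 under UNC0379 (6, 5 and 4 counts). The groups overlapped for this member (log2 fold change -1.39, SE 0.49, edgeR adjusted p = 0.0874). At 0 hpa it had a rule ratio of -2.28, against -0.74 in its neighbour. In the other pair, Sc4wPfr_259.g33632.t1 was at 13.5, 29.2 and 50.5 under DMSO and 0, 3.29 and 31.1 under UNC0379 at 24 hpa, and Sc4wPfr_259.g33633.t1 at 72.6, 43.9 and 27.9 under DMSO and 24.7, 11.53 and 0 under UNC0379. UNC0379 replicate 3, the shallowest library, was the highest of its group for the first and the lowest for the second. This rests on few counts, at 0, 2 and 4 in the UNC0379 libraries for the first and 10, 7 and 0 for the second. The changes were -2.48 (SE 0.67) and -1.64 (SE 0.44), both at an edgeR adjusted p of 0.0157, and both calls were lost in the fit of the 6 libraries alone (adjusted p = 0.519 and 0.408). Without UNC0379 24 hpa replicate 3 the first was -3.89. Its call was lost without UNC0379 24 hpa replicate 1 (-1.80, edgeR adjusted p = 0.124), without replicate 2 (adjusted p = 0.109) and without DMSO 24 hpa replicate 3 (adjusted p = 0.13). The second was -2.32 without UNC0379 24 hpa replicate 1, and its call was lost without DMSO 24 hpa replicate 1 (-1.24, edgeR adjusted p = 0.159) and without UNC0379 24 hpa replicate 2 (adjusted p = 0.092).

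Just inside the limit of -0.7 at 0 hpa were Sc4wPfr_259.g33632.t1 and Sc4wPfr_381.1.g32192.t1, both with a ratio of -0.71. Just outside were Sc4wPfr_501.g11106.t1 and Sc4wPfr_324.1.g5466.t1, both with -0.68. Past the limit of the mean ratio, after Sc4wPfr_446.g12582.t1 at -1.04, came MSTRG.23257.1 at -0.996 and Sc4wPfr_881.g1667.t1 at -0.98. At the level limit, Sc4wPfr_22.g17408.t1 (30.1 CPM) and Sc4wPfr_548.g4929.t1 (31.4 CPM) were inside, and Sc4wPfr_850.1.g5697.t1 (29.5 CPM) and Sc4wPfr_73.g11517.t1 (29.03 CPM) outside. Members thus passed over into other transcripts without a gap.

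2 groups of transcripts that met all limits but 1 were set beside the members at 24 hpa, without a test of the difference. The first was 95 transcripts with a mean ratio of -1 or lower at 3 to 12 hpa but a ratio above -0.7 at 0 hpa. Of these, 60 were called lower (63.2%), with a median log2 fold change of -1.73. The second, 275 transcripts with a ratio of -0.7 or lower at 0 hpa but a mean ratio above -1 afterwards, of which 273 were tested, had 20 called lower (7.33%) and 8 called higher, with a median of -0.08. The share of the second group called lower was close to the 7.34% of all tested transcripts at the level limit. For the members that share was 84.6%, and the median was -2.23. The 3 groups share the same 6 libraries at 24 hpa.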

How the data were processed

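3′ mRNA of regenerating *Hydra* tips was sequenced with the QuantSeq FWD kit. The authors deposited 1 file of raw read counts by transcript for each library. Trimmomatic, HISAT2 and HTSeq are credited in the submitters' processing notes. Not given in the sources used here were their versions, the genome build, the annotation and the strand option. HTSeq's 5 summary lines were left out of library sizes and tests. For each assigned read, 1.03 to 1.22 reads were set aside as ambiguous, so that models that overlap others are undercounted. As no molecular identifiers are described, an interval covers counting error alone.

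The fit used edgeR 4.0.16 in R 4.3.3: filterByExpr on the 10 groups (5046 of 51290 transcripts kept, holding 96.4% to 97.8% of the assigned reads), TMM factors of 0.904 to 1.11, and a robust quasi-likelihood fit with 1 coefficient per group over all 30 libraries. P-values were adjusted by Benjamini-Hochberg over the transcripts tested, with a threshold of 0.05. The SE is the log2 fold change divided by the root of the test's F. An exact test of 3 against 3 libraries cannot go below 0.1. The test was run on simulated data first. Replicate pairs differed by more than sampling noise (chi-square per degree of freedom 1.63 to 24.3). Alternatives were DESeq2 1.42.0, limma-voom (limma 3.58.1), upper-quartile normalization, other filters, only the libraries compared, the replicate number as a block, a fold limit of 0.58 on the log2 scale and each library left out in turn. Thinning to the smallest total and leaving out 3 libraries together were chosen after seeing the data.

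The members, the rule and the lists were chosen with earlier results of these data known. Named members are the 4 lowest and 4 highest by mean ratio, the 5 highest by DMSO level, the 3 lowest and 3 highest by change at 24 hpa, neighbours by gene number, those next to a limit, the highest of each DMSO peak time, and the member that the study pairs with a product name. Figures were drawn with matplotlib 3.10.9.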

Additional observations from a re-analysis of the deposited data

How the results depend on the processing

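With a pseudocount of 1 CPM there were 144 members, with CPM over the TMM-normalized library size 121 (117 of the 130 among them), with counts summed per gene model 131, and with each of the 24 libraries of 0 to 12 hpa left out in turn 118 to 135. The members called lower at 24 hpa were 106 to 111 with DESeq2, limma-voom, upper-quartile normalization and the replicate block, among 235 to 288 of 5046 transcripts. They were 102 with no filter on low counts, among 224 of 24489. With at least 10 counts in 15 libraries they were 93 of 103 members tested, among 216 of 3675 transcripts. The fold limit of 0.58 left all 110. Leaving out each library gave 94 to 112, among 212 to 308 of all transcripts tested, with a median log2 fold change of -2.30 to -2.12 in the members. With only the libraries compared, the calls were 49 of 107 members tested at 24 hpa, among 64 of 3070 transcripts. At 0 hpa they were 24 of 123 members, among 60 of 4169 transcripts.

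With all libraries thinned to the smallest total, 87 members had enough counts, the calls were 28, 67, 66, 53 and 59 in the order of the 5 times, and the median at 24 hpa was -1.998. Over all 2427 transcripts tested after thinning, 65, 128, 149, 95 and 135 were called lower in the same order. With no filter on low counts 21 members were called at 0 hpa, among 80 of 24489 transcripts. Leaving out each library gave 27 to 72 calls at 0 hpa (27 without UNC0379 0 hpa replicate 2 and 30 without replicate 1), and 110 to 124, 103 to 120 and 89 to 113 at the 3 times that follow. Over all transcripts tested, the same settings gave 82 to 216 at 0 hpa, and 210 to 307, 246 to 371 and 173 to 295 at those times. Sc4wPfr_446.g12582.t1 turned to 0.14 at 24 hpa after thinning, and Sc4wPfr_884.g31949.t1 ranged from -0.70 to 0.37 with 1 library left out. The cause of these changes of sign was not tested.

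The replicate numbers did not meet the limit set for pairing, a correlation of deviations above 0.1 in every same-numbered pair of libraries. It was above 0.1 in 5 of 15 such pairs (range -0.025 to 0.359) and above 0 in 14 of them, against 10 of 30 differently numbered pairs. With the replicate block, 64, 124, 119, 113 and 111 members were called in the order of the 5 times, among 173, 287, 337, 261 and 288 of 5046 transcripts. With it, Sc4wPfr_177.1.g6228.t1 passed at 24 hpa (adjusted p = 0.0461, edgeR) while Sc4wPfr_6.1.g604.t1 did not (adjusted p = 0.0503).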
